A study of Rattus norvegicus with 7 samples.

Results

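The extracellular proteolysis genes followed here in stretched spinal cord cultures were the serpins Serpina3n, Serpine2, Serpinf1 and Serping1, the plasminogen activators Plau and Plat, and the urokinase receptor Plaur. They were taken as every probe set that the platform annotation assigns to one of these symbols alone, which gave 9 of the 31042 probe sets and 7 of 14217 named genes. Plau and Plaur had 2 probe sets each, and 8 of the 9 reached a mean signal of 100. The genes were chosen by their signals on these same arrays, with the time courses known, so their values are a description and carry no test.

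The cells came from the spinal cord of Sprague-Dawley rat fetuses at embryonic day 15, with dorsal root ganglia and meninges removed, and were grown on flexible membranes coated with type IV collagen. Cyclic stretching, set to 10% strain and to a frequency of 0.5 Hz, was begun 3 days after seeding and lasted 0, 2, 6, 12, 24, 48 or 72 hours. At each time the RNA of 5 animals was pooled and hybridised to 1 Affymetrix Rat Genome array, so the 7 arrays have no replicates and no value below has an error of its own. The 0 hour culture was the only unloaded one analysed here, so hours under load and hours in culture cannot be told apart.

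Serpins are a family of proteins most of which block serine proteases by offering a bait loop, which the protease cuts and to which it then stays bound. Urokinase (Plau) and tissue plasminogen activator (Plat) convert plasminogen to plasmin, which degrades fibrin and matrix proteins, and the receptor Plaur holds urokinase at the cell surface. In nervous tissue these proteases are known for roles in cell migration, matrix remodelling and synaptic plasticity, and glial cells are known sources of several serpins.

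Sequence upstream of the start was shown for the gene with the steepest increase (Serpina3n), for the one with the deepest decrease (Plau) and for the receptor of the latter (Plaur). Each is the 250 bases before the RefSeq gene start in the rat assembly GRCr8, read 5′ to 3′ on the strand of the gene, with capitals at the motif matches described next. They lie at chr6:129088142-129088391 on the plus strand for Serpina3n, at chr15:3511988-3512237 on the minus strand for Plau and at chr1:89181113-89181362 on the plus strand for Plaur. The promoter table held 5 of the 7 genes, without Serping1 and Plat.
Serpina3n: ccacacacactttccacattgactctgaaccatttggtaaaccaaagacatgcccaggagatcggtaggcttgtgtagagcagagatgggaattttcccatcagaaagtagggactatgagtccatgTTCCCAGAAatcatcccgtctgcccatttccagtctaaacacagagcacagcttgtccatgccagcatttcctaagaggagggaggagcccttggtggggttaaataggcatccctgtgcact
Plau: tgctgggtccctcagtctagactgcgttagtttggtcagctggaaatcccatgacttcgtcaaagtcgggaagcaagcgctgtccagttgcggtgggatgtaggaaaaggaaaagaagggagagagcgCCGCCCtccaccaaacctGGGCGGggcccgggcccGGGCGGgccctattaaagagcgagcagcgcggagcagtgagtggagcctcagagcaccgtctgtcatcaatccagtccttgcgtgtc
Plaur: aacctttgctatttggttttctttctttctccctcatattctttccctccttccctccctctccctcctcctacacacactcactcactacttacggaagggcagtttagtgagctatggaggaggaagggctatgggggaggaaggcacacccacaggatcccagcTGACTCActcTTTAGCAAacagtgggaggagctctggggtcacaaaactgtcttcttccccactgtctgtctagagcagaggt

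Both strands of these windows were searched for the letters of 7 motifs, namely STAT (TTCNNNGAA), AP-1 (TGANTCA), C/EBP (TTGCNNAA), CRE (TGACGTCA), SP1 (GGGCGG), the TATA box (TATAAA) and the NF-kB decamer. Serpina3n held 1 STAT match from -123 to -115 (TTCCCAGAA), read on both strands and counted back from the start, a motif present in 7.67% of 33469 promoter windows of the same length. Plau held 3 SP1 matches, ending at -117, -99 and -82, and 30.5% of all windows held at least 1. Plaur held 1 AP-1 match from -83 to -77 (TGACTCA, in 6.34% of all windows) and 1 C/EBP match on the opposite strand from -73 to -66 (TTGCTAAA, in 9.22%). None of these matches overlapped another motif, and a match of letters is a description and not a binding site. The GC content was 49.2% for Serpina3n, 60.0% for Plau and 51.2% for Plaur, beside a median of 51.2% over all windows.

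The arrays had been scaled to a common trimmed mean, and their medians lay between 144.682 and 162.425. The Gapdh control at the 3′ end stayed between 1.01 and 1.17 times its 0 hour signal. The ratio of the 3′ to the 5′ beta-actin control, a sign of RNA quality, lay between 1.53 on the 2 hour array and 2.62 on the last, from 1.82 before loading, and its part in the values below was not tested. A signal was called above or below 0 hours by the methods' rule of size, a ratio of 2 or more, or of 0.5 or less, with signals at least 200 apart.

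By this rule 1 of the 7 genes was above its 0 hour signal at 72 hours, Serpina3n, and 1 was below it, Plau, on both of its probe sets. Of all probe sets 2.6% were above and 3.54% were below at that time. At 48 hours the same 2 genes passed, where 1.98% of all probe sets were above and 3.05% below. At 24 hours Serpina3n alone passed, where 0.496% were above and 1.31% below. At the earlier times no member passed, where 0.0387% of all probe sets were above and 0.47% below at 2 hours, 0.351% and 1.22% at 6 hours, and 0.419% and 1.71% at 12 hours. These counts follow from how the genes were chosen, and nothing is read from them. Nearest to the rule on the outer side was Serpinf1, with 0.792 times its 0 hour signal at 72 hours.

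**Figure D1:**
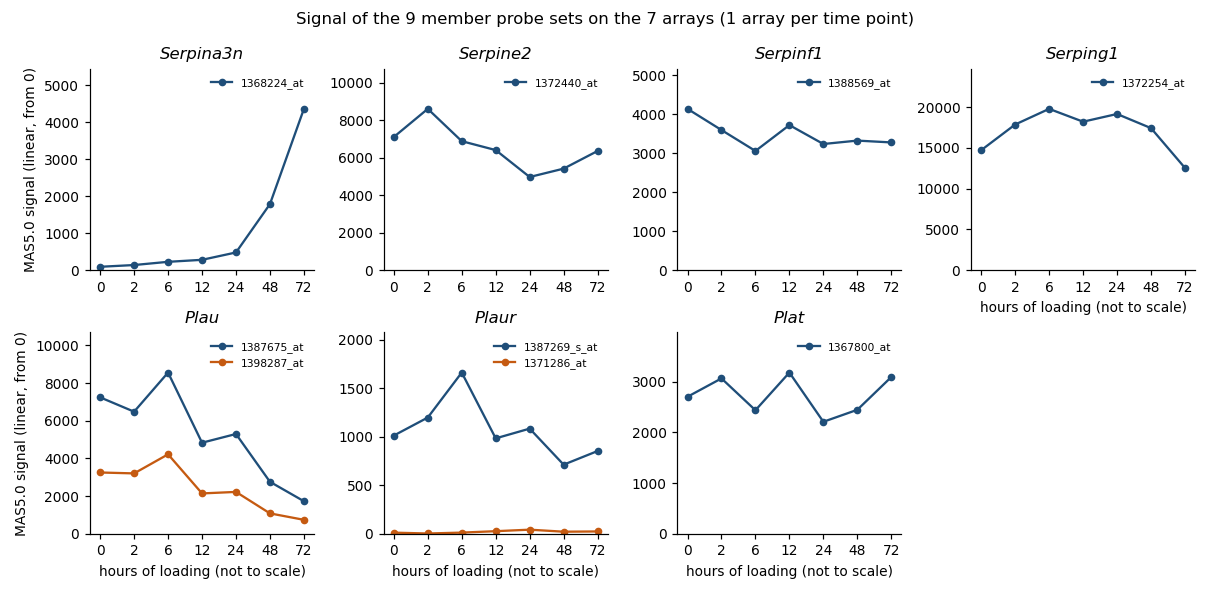
Signal on a linear axis from 0 (vertical) at each of the 7 times of loading in hours (horizontal, equally spaced), with 1 panel per gene and 1 line per probe set. Serpina3n climbs from 88.3 to 4357, both Plau lines peak at 6 hours and end lowest at 72 hours, and the other genes move within a narrower range.

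Urokinase, the activator that works mainly at the cell surface, was highest at 6 hours and lowest at 72 hours on both probe sets. The signals of the brighter one were 7244 at 0 hours, 6482 at 2, 8561 at 6, 4835 at 12, 5298 at 24, 2759 at 48 and 1728 at 72 hours. Those of the dimmer one were 3253, 3205, 4218, 2141, 2222, 1081 and 740 at the same times. Both courses thus had the same shape, with a peak at 6 hours, a level plateau at 12 and 24 hours and 2 lower values after that. At 72 hours the signal was 0.238 and 0.227 times that at 0 hours, and the peak was 4.96 and 5.70 times the lowest value. Both probe sets first passed the rule at 48 hours, with ratios of 0.381 and 0.332. Among the 17709 probe sets whose mean signal reached 100, the 72 hour ratios of Plau ranked 260 and 235 from the lowest, and 3.04% and 2.06% of them spanned a wider range. The ratio at 2 hours was 0.895 and 0.985, and the latter turned to 1.09 when arrays were scaled to the same median.

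Tissue plasminogen activator, which neurons and endothelial cells are known to release, showed no lasting shift. The signals of Plat were 2703, 3065, 2437, 3180, 2209, 2445 and 3092 from 0 to 72 hours. They alternated around the 0 hour value, with the lowest at 24 hours and the highest at 12 hours, 1.44 times apart. At 72 hours the ratio was 1.14, within the range of 0.817 to 1.18 over its later arrays, beside 0.238 and 0.227 for Plau. The 6 hour ratio of 0.902 became 1.01 with arrays scaled to the same median.

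The urokinase receptor was highest at 6 hours, as was its ligand. The bright probe set of Plaur read 1012 at 0 hours, 1198 at 2, 1662 at 6, 983 at 12, 1084 at 24, 712 at 48 and 853 at 72 hours. The 6 hour signal was 1.64 times that at 0 hours, above the 95th percentile of all ratios at that time (1.56), and the 48 and 72 hour signals were below every earlier one. It passed the rule at no time point, the lowest ratio being 0.703 at 48 hours and that at 72 hours 0.842. The 12 hour ratio of 0.971 became 1.07 with arrays scaled to the same median. The other Plaur probe set lay between 2.56 and 42.0 on all arrays, near the floor of the assay, and its ratios were not read.

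**Figure D2:**
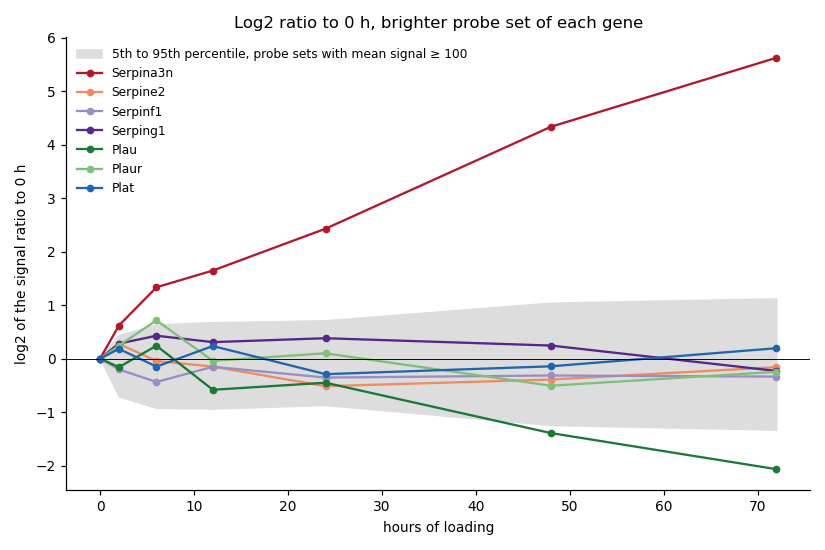
Log2 of the signal ratio to 0 hours (vertical) against hours of loading (horizontal) for the brighter probe set of each gene, over a grey band from the 5th to the 95th percentile of 17709 probe sets. Serpina3n lies above the band at every later time, Plau lies below it at 48 and 72 hours, Plaur leaves it at 6 hours, and the other 4 genes stay inside.

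Among the inhibitors, Serpine2 (protease nexin-1), which blocks thrombin, urokinase and tissue plasminogen activator, had a shallow dip. Its signals were 7100 at 0 hours, 8600 at 2, 6877 at 6, 6401 at 12, 4964 at 24, 5411 at 48 and 6353 at 72 hours. The lowest value, at 24 hours, was 0.699 times that at 0 hours, and the 72 hour value was back at 0.895 times. Its whole range was 1.73-fold, and 43.3% of the probe sets had a wider one. The 6 hour ratio of 0.969 became 1.09 with arrays scaled to the same median.

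Serping1 (C1 inhibitor), which controls C1r, C1s and the kallikrein of the contact system, rested above its 0 hour signal from 2 to 48 hours and below it at 72 hours. The signals were 14702, 17852, 19772, 18197, 19143, 17410.0 and 12528. The highest ratio was 1.34 at 6 hours and the last 0.852, with the 72 hour array the lowest of all 7. A range of 1.58-fold was exceeded by 56.0% of the probe sets, so the course is an ordinary one in size.

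Serpina3n, a secreted inhibitor of the clade of alpha-1-antichymotrypsin and known from reactive astrocytes, moved on another scale. Its signals were 88.3 at 0 hours, 136 at 2, 223 at 6, 276 at 12, 475 at 24, 1782 at 48 and 4357 at 72 hours. Every array was above the one before it, by 1.54, 1.64, 1.24, 1.72, 3.75 and 2.44 times in turn. In the 17709 probe sets, 0.762% were higher at every step. The gene first passed the rule at 24 hours, since the ratios of 2.52 at 6 hours and 3.13 at 12 hours came with differences in signal of 134 and 188. Of the total gain of 4268 in signal, 9.07% was reached by 24 hours and 60.3% came between 48 and 72 hours. Counted in doublings, 2.43 of 5.62 lay within the first 24 hours. Among the 17709 probe sets whose mean signal reached 100, its 72 hour ratio of 49.3 ranked 3 from the highest. The 0 hour signal was below 100, and adding 32 to both signals, the most cautious setting tried, lowered the ratio to 36.5. The related clade members Serpina3c, Serpina3l and Serpina3m stayed between 1.27 and 41.4 on all arrays, near the floor.

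Serpinf1 (pigment epithelium-derived factor), a serpin that blocks no protease and is known as a neurotrophic and anti-angiogenic factor, was lower than at 0 hours on all 6 later arrays. It read 4135 at 0 hours, 3592 at 2, 3055 at 6, 3718 at 12, 3233 at 24, 3321 at 48 and 3274 at 72 hours. The ratios lay between 0.739 and 0.899, and the range of 1.35-fold was exceeded by 80.2% of the probe sets. Serpinf1 was thus the steadiest of the 7 genes.

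Of the 8 brighter member probe sets, the 5 of Serpine2, Serpinf1, Serping1, Plaur and Plat stayed between 0.5 and 2 times their 0 hour signal on all later arrays, as did 78.6% of all such probe sets. A peak at 6 hours followed by a 72 hour signal below that at 0 hours was seen in 4 of the 8, both of Plau, the bright one of Plaur and that of Serping1. In all 17709 this shape was found in 9.73%. The shape was chosen after the values were seen.

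The genes whose courses were most like each member were ranked by Pearson's r of log2(signal + 32) over the 7 arrays, among 11628 probe sets of 1 symbol whose mean signal reached 200. The r ignores the size of a change. For Serpina3n they were Kctd20 (r = 0.997), Sik3 (0.995) and Tbc1d15 (0.994), whose 72 hour ratios were only 1.68, 1.90 and 1.83. For Plau they were Ppib (0.997), Ankrd49 (0.995) and Isoc1 (0.994), with 72 hour ratios of 0.678, 0.517 and 0.472. For Plaur they were Nt5e (0.980), an ectoenzyme that makes adenosine, Lhfpl2 (0.970) and Scarb1 (0.967), a lipoprotein receptor. All of these had their highest signal at 6 hours, from 1.80 to 1.92 times that at 0 hours. For Serping1 they were Inpp5d (0.993), an inositol phosphatase, Ptprc (0.990), the leukocyte common antigen, and Itgb2 (0.988), the leukocyte integrin beta subunit. For the remaining 3 genes they were Nol7, Chmp3 and Chmp2a with Serpine2 (0.982, 0.972 and 0.958), Psip1, Svil and Ivns1abp with Serpinf1 (0.980, 0.974 and 0.972), and Anapc1, Tma16 and Ubtf with Plat (0.925, 0.925 and 0.924). Such r values rest on 7 points that share the same arrays.

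Genes other than the members were tested for a linear change with hours with limma on log2(signal + 32), with p-values adjusted over all 17709 probe sets, and "rose" and "fell" are used only for those with an adjusted p under 0.05. Of all probe sets tested, 15.0% rose and 14.1% fell. Each gene was read from its brightest probe set.

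Among 29 other serpins measured, 5 reached a mean signal of 100, and of these 1 rose and 3 fell. Their median log2 change at 72 hours was -0.86, beside -0.0040 over all probe sets. Serpinh1 (HSP47), the collagen chaperone of the endoplasmic reticulum, fell from 8672 to 5125, a log2 change of -0.71 over 72 hours on the fitted line (SE 0.13, limma adjusted p = 0.00406). Serpinb9, the intracellular inhibitor of granzyme B, fell from 1187 to 580.0 (adjusted p = 0.00227, and 0.00496 on its other probe set). Serpinb1a, an inhibitor of neutrophil proteases, fell from 2431 to 1328 (adjusted p = 0.00857) after a 6 hour signal of 3995, but did not pass without the 72 hour array or with time as log2(hours + 2), where the adjusted p was 0.105. Serpinb6a, an intracellular inhibitor, rose from 683 to 1385 (adjusted p = 0.0196), a call lost without the 2 or the 48 hour array.

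The inhibitors of plasminogen activators outside the 7 genes were mostly too dim to read. Serpini1 (neuroserpin), the neuronal inhibitor of tissue plasminogen activator, had 0.459 times its 0 hour signal at 72 hours without passing (limma adjusted p = 0.303). Its second, slightly dimmer probe set fell to 0.259 times (adjusted p = 0.0271), so the 2 disagree in call but not in direction. Serpinb2 (PAI-2) read 18.8 at 0 hours and 52.6 at 72 hours. Serpinb7, another dim serpin that is not counted among these inhibitors, went from 15.6 at 0 hours to 183 at 72 hours, with a mean too low to test.

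In the wider plasminogen system 33 of 37 listed genes were measured and 21 tested, and 4 rose and 5 fell. The median log2 change at 72 hours was -0.090. Plasminogen itself, mostly a product of the liver, lay between 13.7 and 77.7 on all arrays. Among the proteins that hold plasminogen at the cell surface, the receptor Plgrkt fell from 1220.4 to 676 (log2 change -0.88, SE 0.15, limma adjusted p = 0.00263). Anxa2, the annexin that docks plasminogen and tissue plasminogen activator, fell from 14730 to 10741 (adjusted p = 0.00651, but 0.104 without the 72 hour array, and lost too with log2(hours + 2)). Its partner S100a10 did not pass (11030 and 12581, adjusted p = 0.89).

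Receptors that clear complexes of protease and serpin went in both directions. Lrp1, the main scavenger receptor for them, rose from 2664 to 3599 (limma adjusted p = 0.009, but 0.095 without the 72 hour array). Vldlr, a relative that takes up the same ligands, fell from 794 to 322 (adjusted p = 0.0102), and 1 of its 3 dimmer probe sets passed in the same direction. A2m (alpha-2-macroglobulin), a broad trap for proteases, fell from 1823 to 566 and had the strongest decrease of the list (log2 change -2.14, SE 0.26, adjusted p = 0.000673). Serpina3n, also an acute phase protein in the rat as is A2m, had gone the other way.

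The integrin subunits Itgav and Itgb3, which form the vitronectin receptor that associates with Plaur, both rose. Itgav went from 2462 to 4317 (limma adjusted p = 0.00554), and its other probe sets rose too. Itgb3 went from 655 to 1386 (adjusted p = 0.00922). F2r, the thrombin receptor, rose from 3812 to 5463 (adjusted p = 0.0416), a call lost in 6 of 14 alternative settings, with an adjusted p of 0.649 without the 72 hour array. Tfpi, the inhibitor of tissue factor, fell from 1937 to 1432 on 1 probe set (adjusted p = 0.0216) and rose from 565 to 1105 on the other (adjusted p = 0.00242), so its direction is unsettled. Without the 72 hour array only 2 genes of this list rose.

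Of 19 serine proteases, among them known targets of the member serpins, 15 were measured and 6 tested, and 4 of these rose. The median log2 change at 72 hours was 0.56. The gain was largest for Prss35 and Klk6, neither of which is known as a target of these serpins. Klk6, a kallikrein that cleaves myelin and matrix proteins, rose from 65.1 to 446 (limma adjusted p = 0.00575), although without the 72 hour array the adjusted p was 0.193. Prss35 rose from 148 to 1599 (log2 change 3.33, SE 0.52, adjusted p = 0.00179). C1r, a protease of the first complement component and a target of Serping1, rose from 1419 to 2370 (adjusted p = 0.0411), and Masp2 of the lectin pathway from 331 to 448 (adjusted p = 0.0306). These last 2 calls were lost in 7 and 6 of 14 alternative settings. The course of Masp2 was not a steady climb, with signals of 160 at 2 hours, 173 at 6 and 368 at 24 hours. C1s, the partner of C1r, went from 2838 to 3344 without passing (adjusted p = 0.19). Masp1, also of the lectin pathway, did not pass on its brightest probe set (885 and 685, adjusted p = 0.0953) but fell from 433 to 202 on a dimmer one (adjusted p = 0.00328). Without the 72 hour array only 1 gene of this list rose, and without the 48 hour array 2 did.

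**Figure D3:**
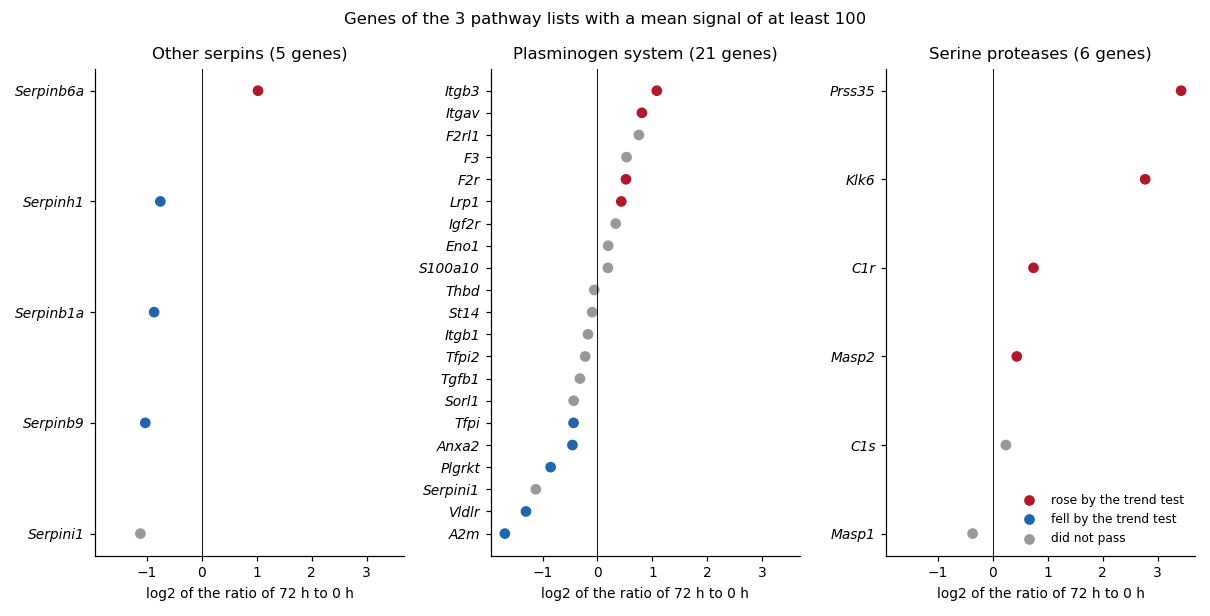
Log2 of the ratio of 72 to 0 hours (horizontal) for each tested gene (vertical) of the other serpins, the plasminogen system and the serine proteases, coloured by the linear trend test (red rose, blue fell, grey did not pass). Points on both sides of 0 are seen among the receptors and cofactors, with A2m lowest at a ratio of 0.311 and Prss35 highest at 10.8.

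In bulk RNA, fewer cells of a type and less RNA per cell cannot be told apart, and several cell type markers moved over the same hours. For neuron markers the median log2 change on the last array was -1.49, with 4 of 11 that fell, among them Tubb3 from 1771 to 379 (limma adjusted p = 0.0154, but 0.0546 without the 48 hour array), and their summed signal ranged from 5777 to 20787. Astrocyte markers, among them Gfap (9579 and 5960) and Aqp4 (6218 and 7606), had a median of -0.096 and 1 of 8 that fell, with a summed signal from 32288 to 49080. Fibroblast and meningeal markers had a median of -0.19, with 1 of 11 that rose and 4 that fell. Markers of the oligodendrocyte lineage and of endothelium were few. The former had a median of -0.20, with 1 of 4 that fell, Olig1 from 429 to 129, and 3 that did not pass. Those of endothelium had a median of -0.33 over 3. Skeletal muscle markers were present too, with Acta1 at 4152 and Myog at 2541 at 0 hours and a median of -2.41 at 72 hours, although the label names spinal cord. Every signal on these arrays was above 0, so a low marker signal does not show that its cell type was present.

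The median and the summed signal of the microglial and macrophage markers peaked at 6 hours, as did the signals of Plau, Plaur and Serping1. Of the 17709 probe sets whose mean signal reached 100, 14.2% were highest at 6 hours. The markers did not all share this peak, since C1qa was highest at 6 hours, Aif1 at 2 hours and Csf1r at 24 hours. Their median log2 change was 0.32 at 6 hours and -0.59 at 72 hours, and 7 of 11 tested fell. Their summed signal was 70489 at 0 hours, 77904 at 2, 89781 at 6, 71131 at 12, 75855 at 24, 63008 at 48 and 43942 at 72 hours. It was thus highest at 6 hours and lowest at 72 hours, as was the signal of Plau and of Serping1, while Plaur was lowest at 48 hours. At 12 and 24 hours their median was 0.069 and 0.23, where the log2 ratio of the brighter Plau probe set was -0.58 and -0.45, and at 48 hours -0.026 beside -1.39. Aif1 fell from 3578 to 654 (limma adjusted p = 0.000144) and C1qa from 5264 to 984 (adjusted p = 0.00156), while Csf1r, read at 5069 and 4813, did not pass. The part of any cell type in the signals of the 7 genes was not tested.

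**Figure D4:**
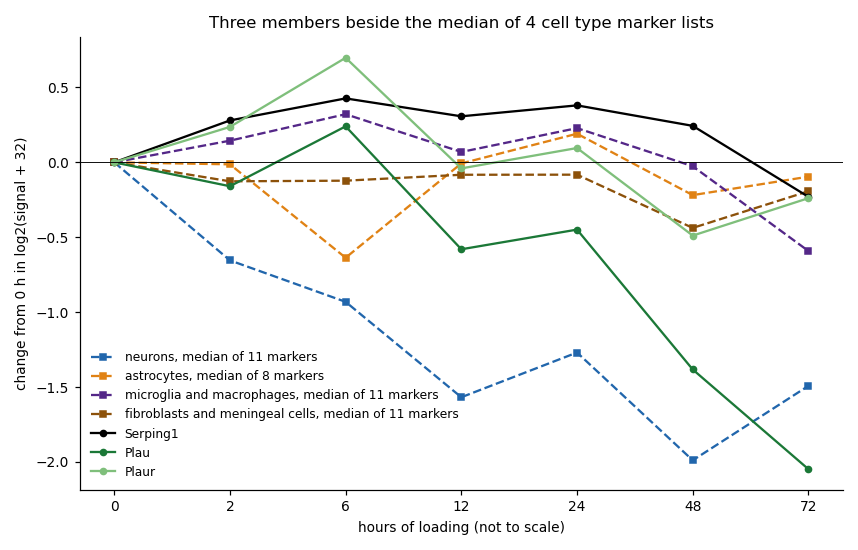
Change from 0 hours in log2(signal + 32) (vertical) at each time of loading in hours (horizontal, equally spaced) for Plau, Plaur and Serping1 (solid lines, brighter probe set) and for the median of 4 marker lists (dashed lines). The microglial median, Plau, Plaur and Serping1 are each highest at 6 hours, and the neuron median is below 0 at every later time.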

How the data were processed

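Total RNA was hybridised to Affymetrix Rat Genome arrays. The authors scanned them and calculated one linear signal intensity per probe set with MAS5.0 in GCOS, scaled globally to a trimmed mean of 500, and these intensities are the deposited values. Detection calls were not used here. Background subtraction makes low signals unreliable, and 42.5% to 44.3% of each array lay below 100. Of 31099 probe sets, 57 controls were left out. Names came from the platform annotation of 2016 (20826 with 1 symbol, 436 with several, 9780 with none), and the gene identifiers of all 9 member probe sets gave the same symbols in GRCr8.

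Ratios to 0 hours were taken on the deposited scale. The linear trend was fitted with limma 3.58.1 in R 4.3.3 (lmFit, eBayes with an intensity trend, 5 residual degrees of freedom, Benjamini-Hochberg adjustment) on log2(signal + 32), which understates changes at low signals, in the 17709 probe sets whose mean signal reached 100. Its spread is that around the line, not between cultures. The test was checked only on simulated data with independent noise and straight-line changes, which hold no error shared by a whole array. List medians use the same scale. The remaining values came from Python 3.11.15 (pandas 2.3.3, numpy 2.4.6).

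The members, gene lists and tests were chosen with earlier results of these data known. Genes named were the members, the 3 most alike per member, up to 5 per direction in each pathway list among those that passed, and Serpinb2, Serpini1, Plg, Lrp1, Plgrkt and C1s. Up to 2 markers were named per cell type list, and Csf1r, Masp1, S100a10, Serpinb7, Serpina3c, Serpina3l and Serpina3m were added after their values were seen. Alternatives were other scalings, baselines, pseudocounts, filters and thresholds, time as log2(hours + 2), and each array left out in turn.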

Additional observations from a re-analysis of the deposited data

How the results depend on the processing

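Serpina3n above and Plau below the threshold at 72 hours held under every alternative run. The 72 hour ratio ranged from 36.5 to 53.8 for Serpina3n, from 0.232 to 0.252 and from 0.218 to 0.239 for the 2 probe sets of Plau, and that of the dim Plaur probe set moved to 3.39 with the mean of 0 and 2 hours as baseline and to 1.28 with 32 added. No paired analysis was possible because each time point has 1 array. With 5 residual degrees of freedom and 42.5% to 44.3% of probe sets below a signal of 100, small changes and dim genes cannot be resolved, and the cause of the shifts below was not tested.

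Scaling to the same median raised log2 ratios by 0.073 at 72 hours to 0.17 at 6 hours. It gave 33 probe sets above and 81 below the threshold at 2 hours (12 and 146 on the deposited scale), 216 and 196 at 6 hours (109 and 379), and 219 above at 12 hours (130). Quantile normalization gave 21 above at 2 hours. With the mean of 0 and 2 hours as baseline there were 0 above and 12 below at 2 hours, 41 and 85 at 6 hours, 75 and 252 at 12 hours, and 128 below at 24 hours (406).

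In the trend test, without a filter 4 other serpins and 2 serine proteases rose, 0 fibroblast and meningeal markers rose and 2 fell, and 1 endothelial and 1 muscle marker fell. With log2(hours + 2), 3 genes of the plasminogen system fell, 2 serine proteases rose and 1 fell, 9 neuron, 4 microglial, 2 fibroblast and 3 muscle markers fell, and 1 endothelial marker rose. With a mean signal of at least 200, 0 astrocyte markers fell. With the same median, 0 fibroblast markers rose and 1 muscle marker fell.

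Leaving out each array in turn, 1244 (without 72 hours) to 2811 probe sets rose and 1266 (without 72 hours) to 2550 fell. The other serpins had 0 to 1 that rose and 2 to 3 that fell, the plasminogen system 2 to 4 and 4 to 7, and the serine proteases 1 to 4 and 0 to 1. Neuron markers had 0 to 1 that rose and 1 to 7 that fell, fibroblast and meningeal markers 0 to 1 and 2 to 4. Of the other lists, 0 to 2 astrocyte, 4 to 8 microglial, 0 to 1 endothelial, 0 to 1 oligodendrocyte and 0 to 3 muscle markers fell. Of the genes of the 3 pathway lists that passed, Serpinb9, Serpinh1, Plgrkt, Vldlr, Itgav, Itgb3, A2m and Prss35 passed in all 14 alternatives, as did the markers Aif1 and C1qa, while Tubb3 and Olig1 were lost without the 48 hour array (adjusted p = 0.0546 and 0.0751).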
